A study of Mus musculus with 3 samples.

Results

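The genes described are the testis-specific serine kinases Tssk1, Tssk2, Tssk3, Tssk4, Tssk5 and Tssk6 and the kinase substrate Tsks, taken as the rows of the count table that carry these 7 symbols among 31053 genes. All 7 were found. They were followed in single-cell RNA-seq libraries of testicular cells from C57BL/6 mice of 3 genotypes, 1 library each: wild type (WT), GRTH knock-out (KO), which lacks the RNA helicase GRTH encoded by Ddx25, and GRTH knock-in (KI), which bears the human GRTH gene with an arginine-to-histidine change and lacks the phosphorylated form of the protein while keeping the non-phosphorylated form. The sample labels give 1 mouse of 8 weeks per genotype and 7000 cells loaded, whereas the methods of the study describe pooled mice over a wider range of ages. With 1 library per genotype no difference between genotypes has a replicate, no test across samples was possible, and each 95% interval below covers counting error only.

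Testis-specific serine kinases are small protein kinases of haploid male germ cells. TSSK1 and TSSK2 act together in spermatids, where they bind and phosphorylate TSKS, a scaffold protein found at the chromatoid body, ring and centrioles, and male mice without both kinases are infertile. TSSK3 and TSSK6 are also required for male fertility, and TSSK6 takes part in the replacement of histones by protamines as the spermatid nucleus condenses. TSSK4 acts on a protein of the outer dense fibres of the tail, and TSSK5 is the least studied of the group. Many messages of spermatids are transcribed well before they are translated, and transcription ends as the nucleus condenses.

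In the GENCODE M21 annotation of GRCm38, Tssk1 (ENSMUSG00000041566) lies on the plus strand of chromosome 16 from 17894223 to 17897922, and Tssk2 (ENSMUSG00000045521) follows on the same strand from 17898637 to 17900024, with 714 bases between them. Each consists of 1 exon, and Tssk1 lies wholly inside Dgcr2, a gene of the opposite strand. Tssk6 (ENSMUSG00000047654) is a gene of 1 exon on the plus strand of chromosome 8 from 69902184 to 69903518, and its ends overlap Yjefn3 by 529 bases and Ndufa13 by 375 bases on the opposite strand. Tssk3 (ENSMUSG00000000411) lies on the minus strand of chromosome 4 from 129489014 to 129491022, Tssk4 (ENSMUSG00000007591) on the plus strand of chromosome 14 from 55650184 to 55652539, Tssk5 (ENSMUSG00000060794) on the minus strand of chromosome 15 from 76371952 to 76374938, and Tsks (ENSMUSG00000059891) on the plus strand of chromosome 7 from 44943204 to 44958035. No member overlaps another gene on its own strand in this annotation.

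Promoter windows of 6 members, from 250 bases before to 50 after the RefSeq start on GRCm38.p6, were searched on both strands for the cAMP response element TGACGTCA, for its 5-base part TGACG, which the full element contains, and for TGACTTCA, a form differing from the element at 1 base that was chosen after these windows had been read. Tssk5 was not in the promoter table. The full element was in 1.79% of all 32851 windows and in none of the 6. The 5-base part was in 20.81% of windows and, among members, in Tssk6 alone, 73 bases before the start. TGACTTCA was in 1.52% of windows and in the neighbouring Tssk1 and Tssk2, and the windows of these genes, whose transcripts appear close together and later part, are shown with that of Tssk6, the last to appear. Capitals mark TGACTTCA, or its reverse complement TGAAGTCA, in Tssk1 (chr16:17893953-17894252, plus strand) and Tssk2 (chr16:17898387-17898686, plus strand), and TGACG in Tssk6 (chr8:69901934-69902233, plus strand). A match of letters is a description of the window and not a bound site.
Tssk1: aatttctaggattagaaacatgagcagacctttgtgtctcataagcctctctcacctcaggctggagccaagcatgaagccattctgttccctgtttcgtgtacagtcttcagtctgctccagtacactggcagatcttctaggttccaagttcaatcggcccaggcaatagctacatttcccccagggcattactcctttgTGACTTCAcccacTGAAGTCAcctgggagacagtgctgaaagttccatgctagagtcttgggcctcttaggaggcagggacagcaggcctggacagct
Tssk2: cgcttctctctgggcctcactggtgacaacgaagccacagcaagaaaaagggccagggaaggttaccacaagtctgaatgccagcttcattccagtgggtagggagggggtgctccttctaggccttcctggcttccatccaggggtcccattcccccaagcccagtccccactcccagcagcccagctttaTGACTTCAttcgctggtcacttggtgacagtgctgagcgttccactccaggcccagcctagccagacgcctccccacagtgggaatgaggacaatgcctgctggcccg
Tssk6: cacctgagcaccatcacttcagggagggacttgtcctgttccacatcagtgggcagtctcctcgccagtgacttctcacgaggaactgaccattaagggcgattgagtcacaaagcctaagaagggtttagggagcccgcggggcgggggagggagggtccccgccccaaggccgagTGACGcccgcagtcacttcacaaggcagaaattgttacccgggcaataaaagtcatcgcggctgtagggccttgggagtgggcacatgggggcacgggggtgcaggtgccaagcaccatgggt
In Tssk1 the 2 copies began 48 and 35 bases before the start and ran in opposite directions, and in Tssk2 the single copy began 58 bases before the start.

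The files held 82973909 UMIs (unique molecular identifiers, each counting 1 captured transcript) in WT, 91388296 in KO and 73150373 in KI. After cell calling and the filters, 5859 WT, 4055 KO and 1568 KI cells were kept, with medians of 5134, 4017 and 11762 UMIs. Clusters were named from marker genes as spermatocyte-like (SP-like), round spermatid-like (RS-like), elongated spermatid-like (ES-like) or somatic, with the 7 genes left out of the genes that formed the clusters. RS-like cells numbered 1279, 1241 and 431 in WT, KO and KI and held 8955781, 6642474 and 5602096 UMIs. Ddx25 held 959 UMIs in RS-like cells of WT, 0 in KO and 684 in KI, and how the human gene of KI contributes to that count was not examined. The pairs WT and KO, WT and KI, and KO and KI shared 16, 37 and 8 kept barcodes.

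Germ cells were also ordered by a position from 1 to 5, the mean rank of 5 ordered marker sets weighted by a cell's scaled UMI share of each set: 1 for spermatocyte genes, 2 for acrosomal genes, 3 for genes of the head and its cytoskeleton, 4 for transition protein and early tail genes, and 5 for Prm2 and other genes of condensing spermatids. Each share was divided by its mean in the 10% of WT germ cells where it was highest. The sets hold genes that the paper reports as lowered in KO and KI round spermatids, among them Acrv1, Eqtn, Capza3 and Spata25. Whether equal position means equal stage across genotypes was not tested. No member was in a set, and 5585 WT, 3602 KO and 1372 KI cells were placed. Between positions 2 and 3.5 there were 1406 WT, 927 KO and 359 KI cells. At 3.5 and above there were 2217 WT cells against 8 in KO and 11 in KI, so that members could be followed beyond 3.5 in WT alone. Levels are UMIs summed over the cells of a class or bin and scaled by the total of that sum to counts per 1000000 UMIs (CPM). They come from tags at transcript ends and were not scaled by gene length, and levels of different genes are therefore set against each other only as shares of UMIs.

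Transcripts of these genes were also counted in droplets that should lack them, and whether free RNA or doublets, which were kept, brought them there was not tested. Sertoli-like cells, which should lack all 7, held Tssk6 at 459 CPM in WT (95% interval 405 to 517), 104 CPM in KO and 298 CPM in KI. For Tssk1 the values were 149, 221 and 298 CPM. Empty droplets held Tssk6 at 377 CPM in WT, 169 CPM in KO and 209 CPM in KI, and Tssk5 at 16.3, 27.6 and 31.5 CPM. In deep spermatocytes the same transcripts were rare: in SP-like cluster 6, of 294, 440 and 184 cells, Tssk6 was at 36.1 CPM in WT, 3.1 CPM in KO and 2.2 CPM in KI. The protamine and transition protein UMIs of that cluster correspond to 16.6%, 10.4% and 3.01% of the UMIs of RS-like cells in WT, KO and KI, if free RNA were equal in every droplet.

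In WT the members appeared in sequence, starting with Tssk4 and ending with Tssk6. Onset is the position at which the level reached 50% of its own maximum. The onset of Tssk4 was at 1.67, followed by Tssk1 at 1.82 and Tssk5 at 1.89, then by Tssk2 at 2.19 and Tsks at 2.35, and last by Tssk3 at 3.42 and Tssk6 at 3.58. For Tssk4, Tssk1 and Tssk2, 50% of the maximum lay below the level in empty WT droplets (146, 496 and 687 CPM), and their levels in the first bin were 13.2, 32.1 and 25.5 CPM. Bins were 0.5 wide, so neighbours such as Tssk1 and Tssk5, or Tssk2 and Tsks, or Tssk3 and Tssk6, were closer than the resolution of the scale.

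**Figure D1:**
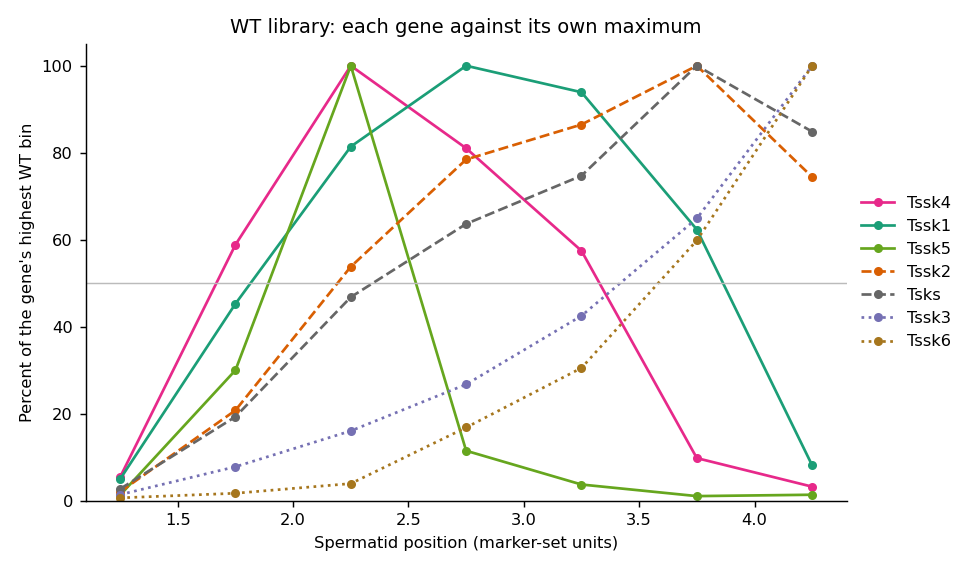
Level of each gene in the WT library (vertical axis, percent of that gene's highest bin) against spermatid position (horizontal axis, marker-set units, points at bin centres); the grey line is 50%. Tssk4, Tssk1 and Tssk5 (solid lines) rose first and fell, Tssk2 and Tsks (dashed) rose next and stayed high, and Tssk3 and Tssk6 (dotted) were highest in the last bin.

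The early genes were transient. Tssk4 rose from 13.2 CPM at positions 1 to 1.5 to 142 CPM in the next bin and to 242 CPM (95% interval 230 to 254) at 2 to 2.5. It then stood at 196, 139, 23.7 and 7.8 CPM in the 4 following bins. Tssk5, the member with the narrowest window, was at 22.9 CPM at 1.5 to 2, at 76.3 CPM (69.5 to 83.6, 466 UMIs) at 2 to 2.5 and already at 8.8 CPM (27 UMIs) in the following bin, below its level in the empty droplets. Tssk5 had fallen to 50% of its maximum at 2.53, and Tssk4 at 3.33.

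Tssk1, which pairs with Tssk2 on TSKS, had a broader window than either. Its levels in the 7 WT bins from 1 to 4.5 were 32.1, 292, 525, 644.5, 605, 402 and 52.4 CPM. It had fallen to 50% of its maximum at 3.86. Tssk2, its neighbour 714 bases further along the chromosome, followed it up and did not follow it down, with 25.5, 257, 664, 968, 1067, 1234 and 919 CPM in the same bins. Tsks, the substrate of both, stood at 25.5, 181, 439, 596, 700, 937 and 795 CPM. Over the 17 bins of the 3 libraries, log2 levels of Tsks and Tssk2 had a Pearson r of 0.995 and those of Tsks and Tssk1 one of 0.84, as descriptions across bins that share libraries, depth and the same cell order.

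Tssk3 and Tssk6 rose throughout WT. Tssk3 stood at 15.7, 86.9, 178, 297, 472, 720 and 1110 CPM. Tssk6 stood at 20.8, 53.6, 122, 521, 945, 1852 and 3094 CPM. The values of Tssk6 in the first 3 bins were below its level in empty droplets (377 CPM), and those from 2.5 on were above it. Both were still at their maximum in the last bin with at least 30 cells, so neither onset has a full curve behind it: in a further bin of 10 WT cells, Tssk6 was at 3918 CPM.

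In KO and KI the members also appeared from Tssk4 first to Tssk6 last, up to the point where cells ran out. Over the 5 bins that all 3 libraries filled, from 1 to 3.5, onsets in WT, KO and KI were 1.67, 1.60 and 1.58 for Tssk4, and 1.82, 1.89 and 1.85 for Tssk1. They were 1.89, 1.74 and 1.79 for Tssk5, 2.09, 2.07 and 2.04 for Tssk2, and 2.08, 2.12 and 2.08 for Tsks. For Tssk3 they were 2.49, 2.40 and 2.40, and for Tssk6 they were 2.69, 2.71 and 2.66. Each of the 7 onsets differed between libraries by less than 0.25, or less than 1 bin. For Tssk3 and Tssk6, highest in the last shared bin, this closeness is partly set by where the curves end. Ending WT at 3.5 moved its onset from 3.42 to 2.49 for Tssk3 and from 3.58 to 2.69 for Tssk6. Tssk5 preceded Tssk1 in KO and KI and followed it in WT, and over these bins Tsks preceded Tssk2 in WT and followed it in KO and KI, both by less than the width of a bin. Along diffusion pseudotime, computed from all variable genes without the members in place of marker sets, the order in each of the 3 libraries was Tssk4, Tssk5, Tssk1, Tssk2, Tsks, Tssk3 and Tssk6. Neighbours were again closer than a bin, as were Tssk2 and Tsks in KI at 4.636 and 4.645, in bin numbers. The early onsets on that scale came later in the mutants. In WT, KO and KI they were 2.85, 3.33 and 3.54 for Tssk4, 3.36, 3.73 and 4.26 for Tssk5, and 3.416, 4.266 and 4.275 for Tssk1.

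**Figure D2:**
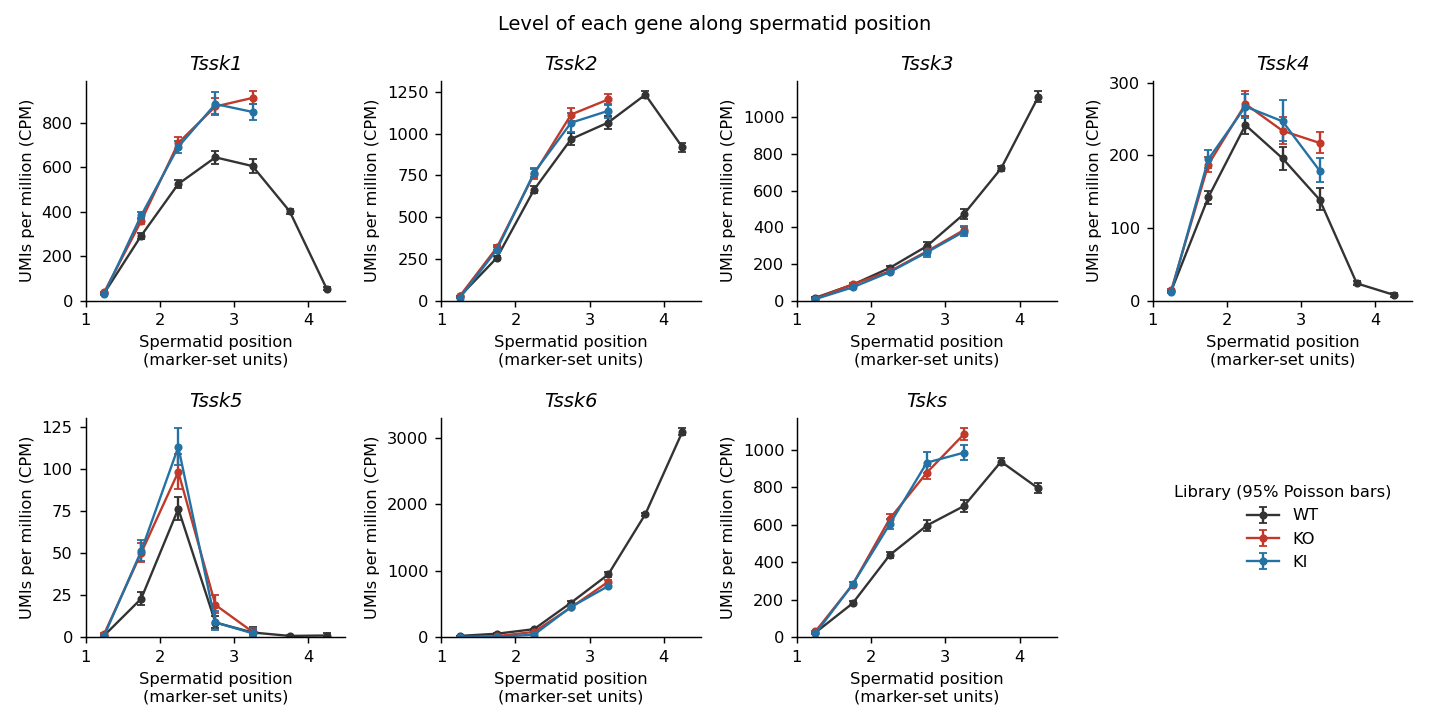
Level of each gene (vertical axes, CPM, starting at 0) against spermatid position (horizontal axes, marker-set units, points at the centres of bins with at least 30 cells) in WT, KO and KI; bars are 95% Poisson intervals. The KO and KI curves end at 3.25, where Tssk1, Tssk4 and Tsks stood above WT and Tssk3 and Tssk6 below it, while WT continues to 4.25.

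At the latest position shared by the libraries, Tssk1, Tssk4 and Tsks stood above WT in both mutants and Tssk3 and Tssk6 below it. Between 3 and 3.5, in 201 WT, 221 KO and 99 KI cells, Tsks was at 700 CPM in WT, 1084 CPM in KO and 985 CPM in KI, log2 ratios of 0.63 (0.55 to 0.71) and 0.49 (0.40 to 0.58) against WT. Tssk1 was at 605, 912 and 849 CPM, log2 ratios of 0.59 and 0.49. Tssk4 was at 139, 217 and 179 CPM, log2 ratios of 0.64 and 0.36, and Tssk2 at 1067, 1206 and 1137 CPM, log2 ratios of 0.18 and 0.09. Tssk3 was at 472, 385 and 376 CPM, with log2 ratios of -0.29 and -0.33. Tssk6 was at 945, 835 and 770 CPM, with log2 ratios of -0.18 (-0.26 to -0.10) and -0.30 (-0.38 to -0.21). None of the 6 members with a mean of at least 50 CPM there reached a 2-fold ratio, where 12.6% of 2994 genes did in KO and 12.7% in KI. That count depends on the setting. In cells thinned to 1000 UMIs each, the ratios of Tssk6 were -1.27 in KO and -1.90 in KI, those of Tssk3 were -1.54 and -1.81, and those of Tssk2 were -0.34 and -0.92. The ratio of Tssk4 in KO was 1.28 with free RNA subtracted by its share in Sertoli-like cells.

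Between 2 and 2.5 the position of Tssk6 in the order was the same in each library but its level was not. Tssk6 was at 122 CPM (114 to 131) in WT, 81.6 CPM (72.5 to 91.5) in KO and 39.5 CPM (33.5 to 46.3) in KI, in 943, 507 and 212 cells. In the bin before, these values were 53.6, 15.9 and 6.5 CPM. The free RNA share estimated from cluster 6 ran in the same order, at 16.6%, 10.4% and 3.01%. Other measures put KI above KO: Tssk6 was at 377, 169 and 209 CPM in empty droplets and at 459, 104 and 298 CPM in Sertoli-like cells. The part of free RNA in these low values was not tested beyond the subtraction given with the class values below.

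**Figure D3:**
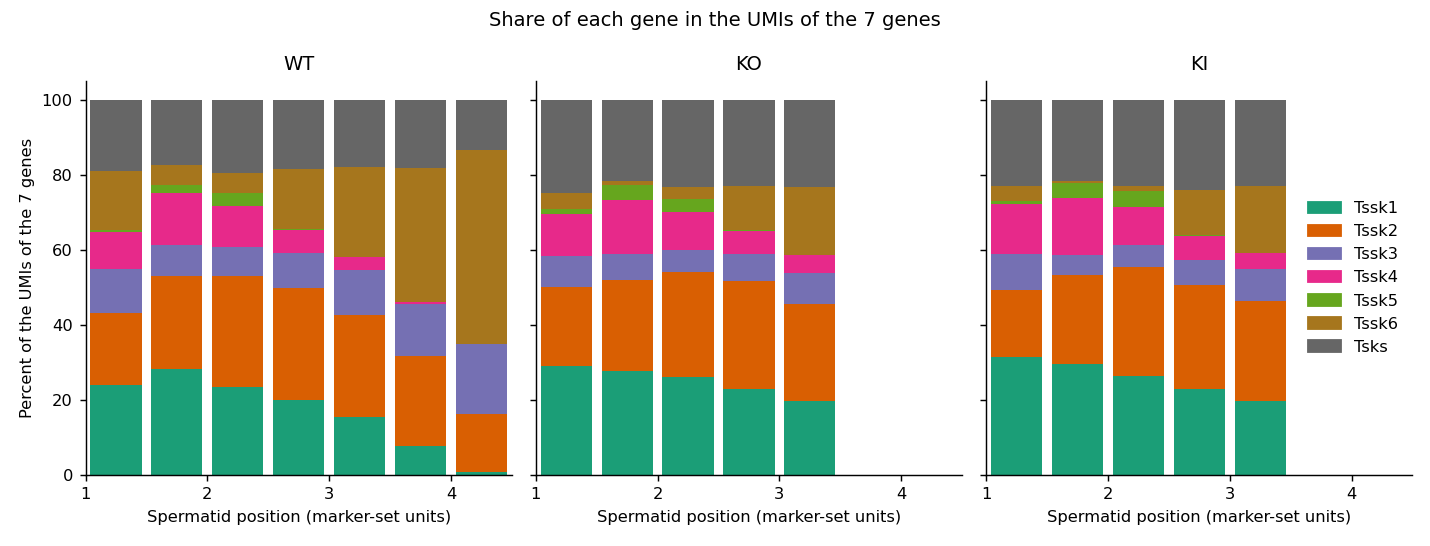
Share of each gene in the UMIs of the 7 genes (vertical axis, percent, bars stacked to 100) by spermatid position (horizontal axis, marker-set units, bins with at least 30 cells) in WT, KO and KI. In WT the share of Tssk6 grows to 51.8% in the last bin while those of Tssk1 and Tssk4 shrink to 0.88% and 0.13%, and KO and KI end at 3.5 with Tssk6 at 18.0% and 17.9%.

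Shares of the UMIs of the 7 genes do not depend on how totals were scaled. In WT the 7 genes together rose from 134 CPM in the first bin to 2247 CPM at 2 to 2.5 and 5979 CPM at 4 to 4.5. Tssk6 made up 5.45% of their UMIs at 2 to 2.5 (exact Clopper-Pearson interval 5.07 to 5.84, of 13718 UMIs), 24.0% at 3 to 3.5 and 51.8% (51.2 to 52.3, of 28191 UMIs) at 4 to 4.5. Tssk1 made up 23.4%, 15.4% and 0.88% at these positions. In the first WT bin Tssk6 was at 15.5% and thus higher than in the following bin (5.17%); in WT empty droplets it was at 16.1%, against 8.84% in KO and 9.44% in KI. Between 3 and 3.5, Tssk6 was at 18.0% (17.4 to 18.5) in KO and 17.9% (17.2 to 18.6) in KI, Tssk1 at 19.6% and 19.8%, and Tsks at 23.4% and 22.9% against 17.8% in WT. The intervals of KO and KI overlapped for each of these 3 shares and neither overlapped that of WT. These intervals cover counting error only, so neither the overlap nor its absence measures a spread between mice.

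Class sums follow the deepest cells most. Among RS-like clusters, cluster 9 held the larger part of the UMIs, with 6934597 (WT), 4303248 (KO) and 4169401 (KI). Over whole RS-like cells, the class that the study's comparison concerns, Tssk6 had the largest ratios of the members, at levels that were also found in empty droplets. It was at 303 CPM (292 to 315) in WT, 113 CPM (105 to 122) in KO and 73.4 CPM (66.4 to 80.8) in KI, or 2715, 752 and 411 UMIs. The log2 ratios against WT were -1.41 (-1.54 to -1.30) in KO and -2.03 (-2.20 to -1.90) in KI. Among 3819 genes with a mean of at least 50 CPM, 1.94% were at least 2-fold lower in KO and 2.99% in KI. The level of Tssk6 in this class was below that in empty droplets of the same library in WT, KO and KI, and below that in Sertoli-like cells in WT and KI, while KO Sertoli-like cells were at 104 CPM. With free RNA subtracted by its amount in spermatocytes, an estimate chosen after the data were seen, the log2 ratios were -1.43 and -2.05.

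Tssk3, the other late gene, was at 244 CPM in WT, 157 CPM in KO and 154 CPM in KI, log2 ratios of -0.64 (-0.75 to -0.53) and -0.66 (-0.78 to -0.55). These levels too were near the background: empty droplets held Tssk3 at 216, 135 and 160 CPM and Sertoli-like cells at 238, 66.9 and 142 CPM, and the WT interval of Sertoli-like cells (200 to 281) spans the level in RS-like cells. Tssk2 was at 843, 698 and 689 CPM, log2 ratios of -0.27 and -0.29. Tssk1, Tsks and Tssk4 stood closer to WT in these sums. The paper instead reports Tssk1 as significantly lowered in round spermatids of both mutants, by its single-cell comparison and by qRT-PCR of isolated cells. Over the processing alternatives, the Tssk1 ratio here ran from -0.28 to 0.26 in KO and from -0.44 to 0.14 in KI. Tssk1 was at 602, 620 and 617 CPM, log2 ratios of 0.04 (-0.02 to 0.10) and 0.04 (-0.03 to 0.10), Tsks at 563, 611 and 589 CPM, log2 ratios of 0.12 and 0.07, and Tssk4 at 221, 233 and 236 CPM, log2 ratios of 0.08 and 0.10. With TMM size factors, which lower every ratio in this class by 0.32 in KO and 0.28 in KI, Tssk1, Tsks and Tssk4 stood below WT, at -0.28, -0.20 and -0.24 in KO and -0.25, -0.22 and -0.18 in KI.

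Tssk5 stood highest against WT. It was at 48.1 CPM in WT (43.7 to 52.9, 431 UMIs), 84.2 CPM in KO (77.3 to 91.4) and 101 CPM in KI (93.2 to 110), log2 ratios of 0.79 and 1.06. At least 2-fold higher were 2.80% of the 3819 genes in KO and 2.93% in KI, Tssk5 among them in KI alone, and with TMM its ratio in KI came to 0.78. At positions 2 to 2.5, where Tssk5 peaks, it was at 76.3, 98.2 and 113 CPM. Over positions 2 to 3.5 as a single range it was at 43.0, 41.0 and 59.1 CPM, log2 ratios of -0.06 (-0.26 to 0.12) in KO and 0.45 (0.27 to 0.65) in KI, and over the processing alternatives the KO ratio ran from -0.89 to 0.36. The 7 members had a median log2 ratio over this class of 0.04 in both KO and KI, beside 0.14 and 0.19 for all 3819 genes.

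**Figure D4:**
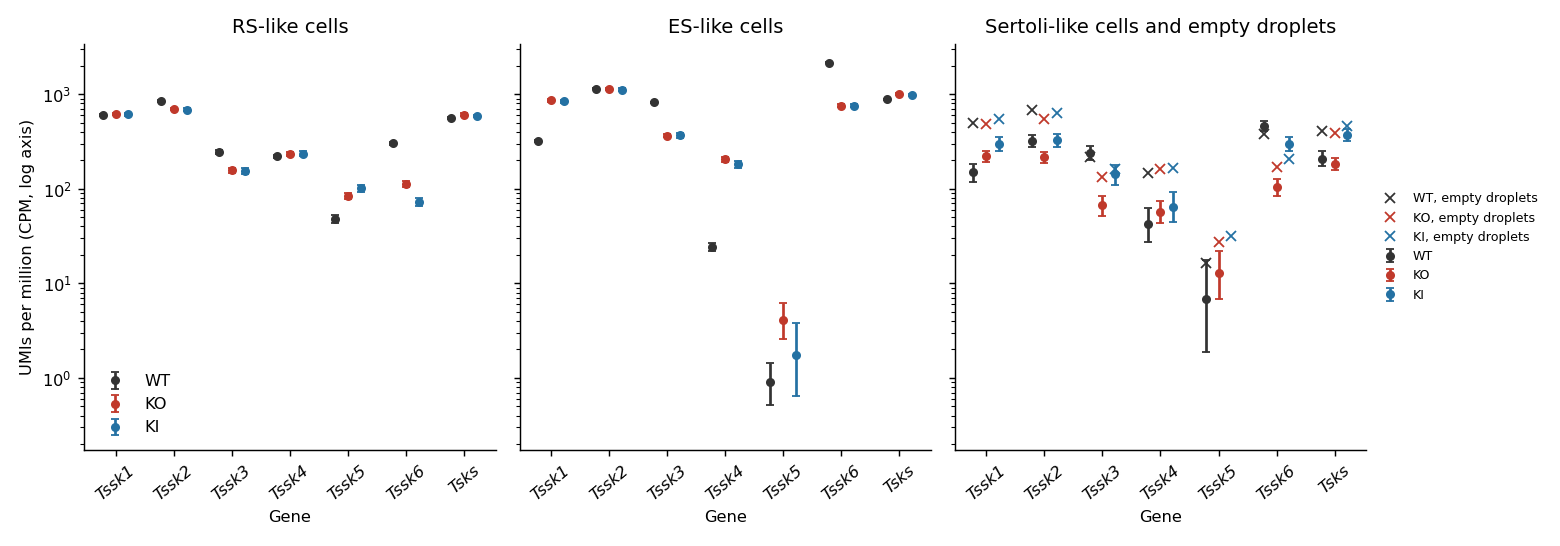
Level of each gene (vertical axis, CPM, log scale) in RS-like, ES-like and Sertoli-like cells of WT, KO and KI; points are sums over the cells of a class, bars 95% Poisson intervals, and crosses in the third panel the level in empty droplets; a gene without a UMI is not drawn. In RS-like cells Tssk6 steps down from 303 to 113 and 73.4 CPM, whereas Tssk1 lies at 602 to 620 CPM in all 3 libraries.

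The clusters of the RS-like class sat at different positions in the 3 libraries. The median position in WT, KO and KI was 1.89, 1.63 and 1.68 in cluster 8, 2.19, 1.95 and 2.00 in cluster 1 and 2.49, 2.30 and 2.22 in cluster 9. Within cluster 9, the deepest and latest of them, with 354, 197 and 92 cells, Tssk6 was at 335, 153 and 90.2 CPM, log2 ratios of -1.12 and -1.88. Tssk5 there was at 32.4, 84.6 and 100 CPM, log2 ratios of 1.36 and 1.60. In the other RS-like clusters the intervals of the Tssk5 ratio include 0: the ratios were -0.10 in KO and 0.19 in KI in cluster 1, and -0.45 and 0.05 in cluster 8. In cluster 9, Tssk1 stood at 711, 849 and 786 CPM. In the shallow cluster 1, with 668, 690 and 242 cells, Tssk1 was at 279, 254 and 165 CPM and Tssk2 at 385, 244 and 192 CPM. Empty droplets held more of both, with 496, 484 and 551 CPM of Tssk1 and 687, 549 and 633 CPM of Tssk2, and Sertoli-like cells held Tssk2 at 322, 217 and 327 CPM. The Tssk6 ratio was below -1 in the RS-like class and in each of its clusters in both mutants. In each cluster and library, however, Tssk6 was below its level in empty droplets (377, 169 and 209 CPM). It was at 262, 55.0 and 40.1 CPM in cluster 1. In cluster 8 it was at 92.7, 22.8 and 8.5 CPM, or 74, 26 and 6 UMIs. Over positions 2 to 3.5 as a single range the Tssk6 ratio was 0.23 in KO and -0.19 in KI. As reported, KO lay below WT in each of the 3 bins of that range, at 81.6 against 122, 450 against 521 and 835 against 945 CPM, and the last of them held 221 of 927 KO cells and 201 of 1406 WT cells. Over the processing alternatives the ratio over the single range ran from -0.65 to 0.98 in KO and from -0.94 to 0.09 in KI. In KO the ratios of the 3 bins ran from -1.40 to 0.15, from -0.46 to 0.16 and from -1.27 to 0.01. The direction of Tssk6 in KO at matched marker-set position was therefore not settled. Along diffusion pseudotime, Tssk6 in bins 5, 6 and 7 of 8 was at 572, 1329 and 1966 CPM in WT. KO was below WT in each of these bins, at 216.5, 651 and 705.5 CPM in 653, 196 and 111 cells. Whether the cells of both libraries sat at the same place within a pseudotime bin was not tested.

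**Figure D5:**
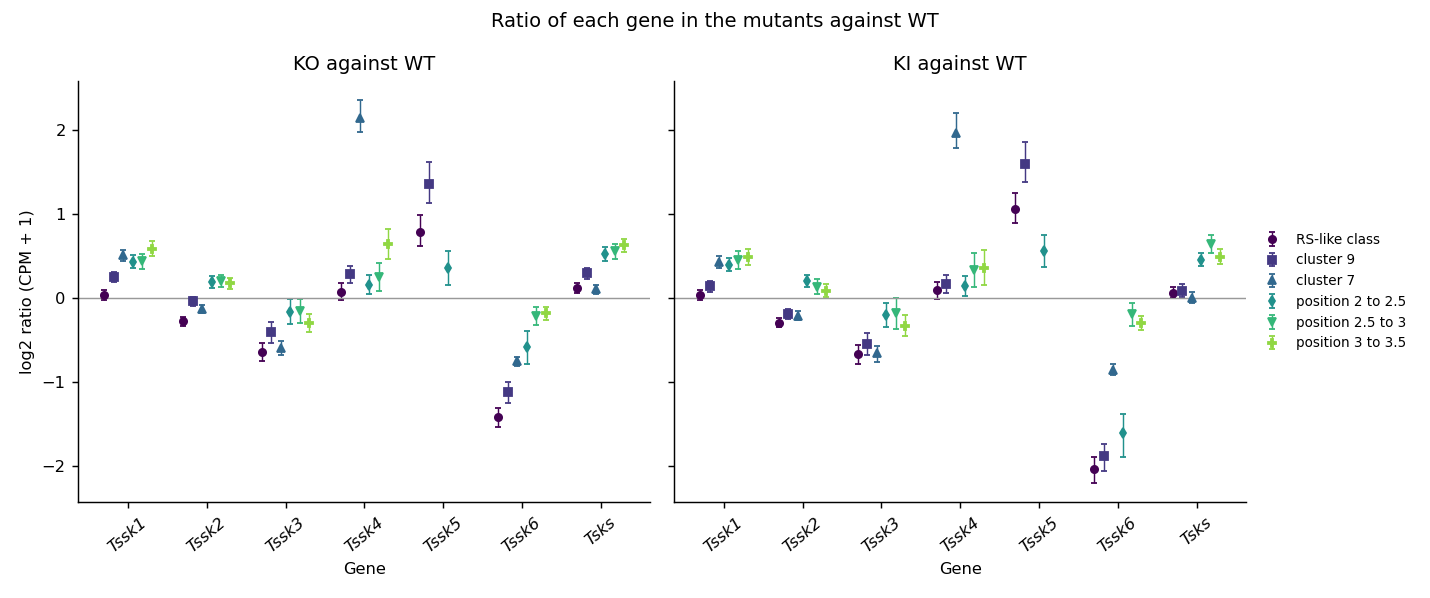
log2 ratio of each gene (vertical axis, CPM with 1 added) in KO and KI against WT, over the RS-like class, within clusters 9 and 7, and within 3 bins of spermatid position; bars are 95% counting intervals, and values with a mean under 20 CPM are not drawn. Tssk6 is lowest over the RS-like class, at -1.41 and -2.03, and within the bin 3 to 3.5 it lies at -0.18 and -0.30.

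In cells classed as ES-like after integration, the late genes stood lower and the early genes higher in the mutants. Tssk6 was at 2151 CPM in WT, 758 CPM in KO and 756 CPM in KI, and Tssk3 at 819, 366 and 369 CPM; these 2 members were at least 2-fold lower in both mutants, as were 5.20% of 2790 genes in KO and 4.23% in KI. Tssk1 was at 317, 864 and 840 CPM and Tssk4 at 24.3, 206 and 182 CPM, at least 2-fold higher, as were 47.5% of genes in KO and 46.9% in KI. The 2 higher members of 6 with a mean of at least 50 CPM are no larger a share than that of all genes. TMM size factors shift every ratio in this class by -1.316 in KO and -1.303 in KI. With them Tssk1 came to 0.13 and 0.10, no longer 2-fold, Tsks to -1.12 and -1.16 and Tssk2 to -1.32 and -1.34, whereas Tssk4, at 1.75 and 1.58, stayed above WT and Tssk3 and Tssk6 below it. The class was made of different clusters: cluster 3, centred at 4.03, held 1147 of 2350 WT cells against 9 of 430 in KO and 1 of 164 in KI, whereas cluster 7 held 421, 245 and 100. Within cluster 7, where WT cells had a median position of 3.78, KO cells 3.09 and KI cells 3.15, Tssk6 was at 1326, 788 and 735 CPM. Tssk1 in that cluster was at 631, 899 and 853 CPM, and Tssk4 at 47.2, 212 and 188 CPM. Tssk2 at 1292, 1184 and 1120 CPM and Tsks at 983, 1057 and 988 CPM were the members closest to WT there. The presence of mutant cells in the ES-like class depended on integration. Without it, the ES-like clusters held 1138 and 1047 WT cells, 0 and 1 KO cells, and 4 and 1 KI cells. An unnamed cluster of that setting held 187 WT, 468 KO and 150 KI cells, with its best score for RS markers (0.92, beside 0.69 for ES). Its leading genes were Tnp2, Prm2, Tnp1 and Prm1, and it stayed unnamed because more of its leading genes were ES markers. The paper describes no distinct elongated spermatids in KO and KI.

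Between KO and KI, Tssk6 and Tssk5 stood furthest apart in the RS-like class. In RS-like cells, log2 ratios of KI against KO lay between -0.05 and 0.02 for Tssk1, Tssk2, Tssk3, Tssk4 and Tsks, were 0.27 (0.10 to 0.44) for Tssk5 and -0.62 (-0.80 to -0.45) for Tssk6, and none reached 2-fold, as 0.576% of genes did. By position, the KO and KI levels of Tssk6 were 15.9 and 6.5 CPM at 1.5 to 2, then 81.6 and 39.5 CPM at 2 to 2.5, a log2 ratio of -1.03 (-1.34 to -0.76). These levels were below those in empty droplets of the same libraries. At 2.5 to 3, KO was at 450 CPM (424 to 477) and KI at 457 CPM (420 to 496). In ES-like cluster 4, of 176 KO and 63 KI cells, Tssk6 was higher in KI. Its levels there were 416 and 978 CPM, a log2 ratio of 1.23 (0.92 to 1.55). Over the whole ES-like class they were 758 and 756 CPM. In cells thinned to 1000 UMIs the KI against KO ratio of Tssk6 turned to 0.59 in RS-like cells and to 0.28 at 2 to 2.5.

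The share of cells with a UMI was compared at equal depth. Cells were thinned to 1000 UMIs, which left out 194, 156 and 9 shallower RS-like cells in WT, KO and KI. Of the remaining 1085, 1085 and 422 RS-like cells, 18.3% in WT (16.1 to 20.8), 4.33% in KO (3.20 to 5.72) and 6.16% in KI (4.06 to 8.90) held a Tssk6 UMI, against 38.2%, 14.2% and 18.1% before thinning at median depths of 2264, 2119 and 3967 UMIs. In thinned Sertoli-like cells the shares were 26.3%, 4.95% and 8.00%, and since the shares of RS-like cells with Tssk6 lay below these in each library, no difference is read from them. Tsks was found in 40.7%, 37.8% and 41.9% of thinned RS-like cells against 21.2%, 13.7% and 10.0% of Sertoli-like cells, and the intervals of these RS-like shares overlapped between libraries. Tssk2 was found in 35.7% (32.8 to 38.6), 27.5% (24.8 to 30.2) and 23.7% (19.7 to 28.05) of thinned RS-like cells. Tssk3 was found in 23.6%, 11.1% and 12.6%. For both genes the KO and KI intervals lay below that of WT. In each library, however, their RS-like and Sertoli-like intervals overlapped. Tssk1 (29.0%, 26.3% and 23.0%), Tssk4 (14.8%, 12.5% and 12.8%) and Tssk5 (6.36%, 9.22% and 9.72%) had intervals that overlapped WT in both mutants. In thinned ES-like cells, 89.2% held Tssk6 in WT, 41.4% in KO and 43.1% in KI.

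Genes that work with these kinases were followed from a list of 11. In RS-like cells 3 of 11 were at least 2-fold higher in KO and 2 in KI, beside 2.80% and 2.93% of the 3819 genes, and none was 2-fold lower. Hsp90ab1, a chaperone gene and the one of them above the background floor of 50 CPM, stood at 53.0, 117 and 122 CPM by library in the same sequence. Hspa8, another chaperone gene, was at 6.1, 24.4 and 25.2 CPM, and H2afx, which encodes the histone variant H2AX, at 8.9, 19.6 and 18.6 CPM, both under that mean. Tsacc, the HSP90 co-chaperone that binds TSSK6, was at 678, 502 and 497 CPM, log2 ratios of -0.43 and -0.45. Pdpk1, which encodes a kinase that activates TSSK3, was at 208, 175 and 175 CPM. Odf2, an outer dense fibre gene, was at 1357, 1336 and 1434 CPM and Crem, a spermatid transcription factor, at 500, 435 and 490 CPM. Hsp90aa1, a further chaperone gene, was at 978, 1371 and 1358 CPM, and Ppp1cc, which encodes a phosphatase of sperm, at 537, 630 and 767 CPM. Creb1, which encodes a transcription factor, had 24.2, 14.5 and 15.2 CPM. Between 3 and 3.5, 1 of 11 was at least 2-fold lower in KO and 3 in KI, and none was 2-fold higher. Of the 2994 genes with a mean of at least 50 CPM there, 12.6% and 12.7% were 2-fold apart, counted in either direction. Spag16, whose product TSSK2 phosphorylates, was at 93.7, 43.7 and 41.4 CPM, more than 2-fold lower in both mutants, and it had stood at 995, 997 and 1075 CPM in the first bin. The other 2 in KI, both with a mean under 50 CPM, were H2afx, at 7.3, 3.5 and 2.8 CPM, and Hspa8, at 9.4, 5.0 and 3.5 CPM.

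Genes with the pattern most like each member, by Pearson r of log2(CPM + 1) over the 17 bins among 3614 genes, form a description with shared libraries and cell order. For Tssk6 they were 1700012A03Rik, 1700042G07Rik and Spem1 (r from 0.995 to 0.998), for Tssk3 Gsg1, Gapdhs and Akap4 (0.994), and for Tssk2 1700003F12Rik, 1700019D03Rik and Tmem247 (0.998). Tsks was closest to 1700019D03Rik, Morn3 and Irgc1 (0.996 to 0.997), so that 1700019D03Rik was shared with Tssk2. Tssk1 was closest to 1700093K21Rik, Akap3 and Gm31752 (0.995 to 0.996), and Tssk4 to Slc35g3, Coro2a and 1700061G19Rik (0.994 to 0.996). The closest to Tssk5, 4930412F09Rik, Dzip1 and Agbl1, reached 0.963 to 0.966. Spem1, Gapdhs and Akap4 belong to the marker sets that define position.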

How the data were processed

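Testicular cells of WT, KO and KI were measured in 1 library each by droplet single-cell RNA-seq. The deposited values are raw UMI counts of each gene in each barcode, which the authors aligned to mm10 and did not normalize, filter or call as cells. The submitters' processing notes name Cell Ranger 2.1.1 and the file headers name Cell Ranger 4, and which is right was not settled. The members and gene lists were chosen with earlier results of these data known.

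Cells were called by total UMIs and by comparison with empty droplets, at 3000 expected cells, and kept if they held over 500 genes and if mitochondrial UMIs made up under 10%. The kept cells held 55162659, 50093915 and 42782860 UMIs in WT, KO and KI. Libraries were integrated with SCTransform (Seurat 5.3.0, sctransform 0.4.2, R 4.3.3) over 2000 genes without the 7 members, and 100 components were clustered with Leiden at a resolution of 0.3 (scanpy 1.11.5, leidenalg 0.10.2, Python 3.11.15). Clusters were named from the marker lists. Doublets were kept.

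UMIs were summed per class, cluster or bin and library, scaled to CPM by their total, and compared as log2 ratios after adding 1 CPM. Called means 2-fold or more, set beside all genes with a mean of at least 50 CPM over the 3 libraries. Intervals are 95%: Poisson for levels, Clopper-Pearson for shares and conditional binomial for ratios without the added CPM. With 1 library per genotype there was no test. A cell needed at least 10 UMIs of the marker sets to be placed, and a bin at least 30 cells. Onset was interpolated between the centres of bins 0.5 wide. TMM size factors came from edgeR 4.0.16. The calculations of the ratio and the onset were run on simulated counts with Poisson error alone. Free RNA, shifts of position and spread between cells were not simulated. Free RNA was estimated from Prm1, Prm2, Tnp1 and Tnp2 in Sertoli-like cells and, after the data were seen, in spermatocyte cluster 6. The text names all 7 members, the partner list, the 3 genes most like each member, and Ddx25. Promoters are from RefSeq on GRCm38.p6 and gene positions from GENCODE M21. The count table pairs gene IDs with symbols.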

Additional observations from a re-analysis of the deposited data

How the results depend on the processing

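The median log2 ratio of the 7 members in RS-like cells, 0.04 in KO and 0.04 in KI, moved with the scaling and the cells. It was -0.28 in KO and -0.25 in KI with TMM size factors, -0.22 and -0.44 in cells thinned to 1000 UMIs, and -0.32 in KO with free RNA subtracted by its share in Sertoli-like cells. Among alternatives chosen after seeing the data, it was 0.10 in KO without the RS-like cluster of low UMIs, 0.26 in KO in cluster 9 alone and -0.062 in KI without cells of shared barcodes. The causes were not tested beyond what these settings change by construction. Against WT, Tssk6 kept its sign and stayed at least 2-fold lower under every alternative run in RS-like cells, at -2.29 to -1.03 in KO and -2.31 to -1.70 in KI, though its reported levels there were below those in empty droplets. Tssk3 ranged from -1.15 to -0.29 in KO and from -0.95 to -0.33 in KI, and Tssk5 from 0.34 to 1.36 in KO and from 0.71 to 1.60 in KI. Of 1666 values of single members over all ranges, 1171 stayed within their counting interval, 492 moved beyond it and 139 changed sign (31 of 259 in RS-like cells). Of those that changed sign, 3 had been larger than 2-fold in the main setting, and their changed log2 ratios are given in brackets. In thinned cells they were Tssk6 in KI against KO at 2 to 2.5 (0.28) and Tssk5 in KO against WT at 2.5 to 3 (-0.26). With position from markers other than protamine and transition protein genes, the other was Tssk5 in KI against KO at 2.5 to 3 (0.36). At 3 to 3.5 against WT, Tssk6 ranged from -1.27 to 0.01 in KO and from -1.90 to -0.11 in KI, Tssk3 from -1.54 to -0.066 and from -1.81 to -0.10, and Tssk4 in KO from 0.55 to 1.28. Of 147 onsets, 115 stayed within 0.25. Tssk6 was last in every library and setting, and Tssk4 first in all but thinned KI cells. In the shared-barcode setting no sign changed for Tssk6 or Tssk3 against WT in RS-like cells. The subtraction by Sertoli-like cells gave no KI value, since their protamine and transition protein level was 139% of that in empty droplets. Ratios at 3.5 and above were not run, with 8 KO and 11 KI cells, and no unnamed cluster of the integrated libraries had spermatid-like leading genes, so that alternative gave no value. Without integration, 2 unnamed clusters of 805 and 279 cells led by protamine and transition protein genes stayed out of the RS-like class. Depth limits Tssk5 beyond 2.5, with 11 KI UMIs at 2.5 to 3 and 7 WT UMIs at 3 to 3.5. No paired analysis was possible because each genotype had 1 library.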
